A study of Homo sapiens with 12 samples.

Results

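The genes described here code for proteins of the centrosome and of the primary cilium. They were chosen with earlier results of these data known, by a rule on names that uses no measured value: all symbols made of CEP, IFT or BBS and a number, pseudogenes left out, together with PCM1, PCNT, NIN, OFD1 and CDK5RAP2. The rule found 62 of the 59050 gene symbols in the deposited count table, of which 35 were CEP genes, 14 IFT genes and 8 BBS genes. The study compared HUES8, a human embryonic stem cell line of wild-type genotype (ESC), with neural progenitor cells (NPC) made from it. The NPC groups had spent 7 days in neural induction medium with SB431542 at 2.5 uM, a blocker of Nodal and activin receptors, and LDN193189 at 0.05 uM, a blocker of BMP receptors, and SB431542 was left out on the last 2 days. The ESC groups had not been induced. Each state was measured by sequencing of rRNA-depleted total RNA and of ribosome-bound RNA, in 3 libraries per state and assay, which makes 4 groups and 12 libraries. All groups come from a single cell line, and the labels do not say whether the libraries of a group are separate cultures, so p-values measure the spread between these libraries, which may be technical. The way in which ribosomes were isolated was not known (not given in the sources used here).

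The centrosome is a pair of centrioles, barrels of microtubules, set in a cloud of pericentriolar material that nucleates microtubules. When a cell leaves division, the older centriole docks at the membrane through its distal appendages and becomes the basal body of a primary cilium, the antenna through which neural progenitors receive Hedgehog signals. CEP proteins build and duplicate centrioles, their appendages and the surrounding granules called centriolar satellites. IFT proteins form the IFT-A and IFT-B trains that motors carry along the cilium, and BBS proteins form the BBSome, a coat that moves membrane receptors out of it.

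The RNA libraries held 19529738 to 35117370 counts each, and ribosome-bound libraries 2422756 to 4451196. A gene at 0 counts could still have been present at 3 counts, which was 0.0854 to 0.154 CPM (the count scaled to the library total) for RNA and 0.674 to 1.24 CPM for ribosome-bound RNA. These limits cover counting error only. The markers of each state went with the labels: all 6 pluripotency markers tested fell in both assays and all 6 neural progenitor markers rose in RNA. A pair of libraries stood apart from their group. ESC replicate 3 of the RNA libraries correlated with its group at r = 0.970 and 0.963, where the other pair reached 0.996, and its median member lay 0.34 higher on the log2 scale than in the other ESC libraries. ESC replicate 2 of the ribosome-bound libraries correlated at r = 0.923 and 0.937, where the other pair reached 0.968, and its median member lay lower, at -0.58. In the ribosome-bound ESC libraries the 6 mesoderm and endoderm markers summed to 260 to 275 CPM, led by MIXL1 at a mean of 173 CPM, against 10.8 to 11.5 CPM in the RNA of ESC and 1.99 to 3.97 CPM in ribosome-bound RNA of NPC. None of the 6 was at 0 in the ESC means, and their part in the results below was not tested. Whether counting used strand, and what became of reads that match more than 1 gene, is unknown (not given in the sources used here), and 23 of the 62 members overlap the span of another coding gene, so the values of those members are less certain. Among them are CEP290 (with RLIG1), CEP162 (with MRAP2), BBS2 (with OGFOD1), CEP63 (with ANAPC13), CEP95 (with DDX5) and OFD1 (with TRAPPC2).

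In total RNA the members shifted mildly upward, and in ribosome-bound RNA many CEP genes rose several-fold. The change from ESC to NPC was tested per assay by edgeR's quasi-likelihood method, with p-values adjusted over all genes tested and a threshold of 0.05, and are given as log2 ± SE after scaling between libraries, so they differ slightly from ratios of the CPM values. In RNA, where all 62 members were tested, 24 rose and 4 fell, against 26.4% of all 18631 genes tested that rose and 26.2% that fell. The members' median was 0.26 on the log2 scale and that of all genes 0.03. In ribosome-bound RNA 58 members passed the filter on low counts, of which 38 rose and 3 fell, against a background of 31.6% higher and 30.3% lower among 12250 genes. Their median was 1.11, with -0.01 over all genes. BBS5, CEP19, CEP126 and CEP295NL had too few ribosome-bound counts, between 1 and 27 per state, to be tested. In bulk samples like these, more cells of a type and more RNA per cell cannot be told apart.

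The families differed in which assay moved. Among CEP genes 9 of 35 rose in RNA (25.7%, where 26.4% of all genes rose) and 2 fell (5.71%, where 26.2% of all genes fell), with a median of 0.16. In ribosome-bound RNA 22 of the 32 CEP genes tested rose and 1 fell, with a median of 1.63. Of the IFT genes 8 of 14 rose in RNA with a median of 0.39, and 9 rose and 1 fell in ribosome-bound RNA with a median of 0.86. Of the BBS genes 5 of 8 rose and 1 fell in RNA with a median of 0.54, and 3 of 7 rose and 1 fell in ribosome-bound RNA with a median of 0.37. The 5 single genes had medians of -0.11 in RNA and 1.26 in ribosome-bound RNA. These counts and medians are descriptions, and the difference between families was not tested.

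**Figure D1:**
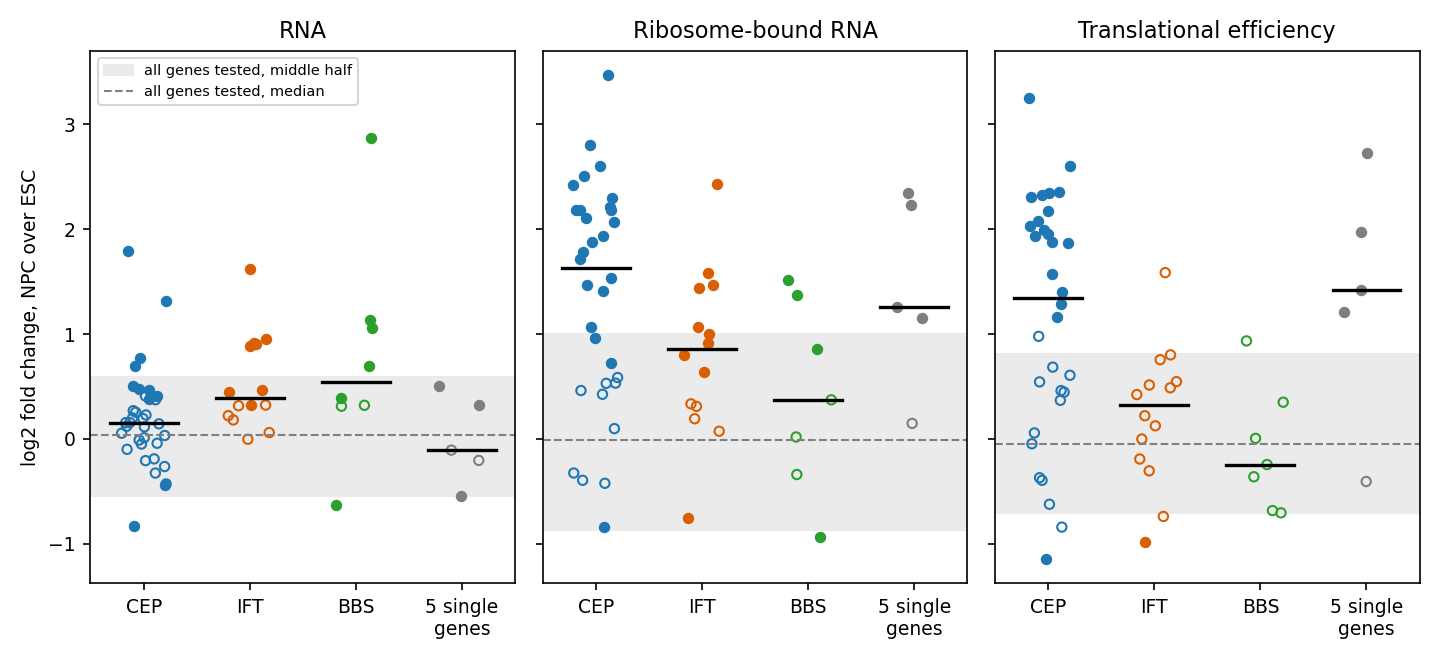
Each point is a gene, by family, with its log2 fold change of NPC over ESC in RNA, in ribosome-bound RNA and in the ratio of the assays (translational efficiency). Filled points passed the test, black bars are family medians, the dashed line is the median of all genes tested and the grey band runs from their lower to their upper quartile. The CEP median moves from 0.16 in RNA to 1.63 in ribosome-bound RNA, while the BBS median is 0.54 in RNA and 0.37 in ribosome-bound RNA.

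Summed over each family, the same pattern stood in the levels of the libraries. The CEP genes together took 947, 979 and 1081 CPM of RNA in ESC and 1174, 1190 and 1204 CPM in NPC. In ribosome-bound RNA they took 743, 423 and 652 CPM in ESC and 1595, 1736 and 1554 CPM in NPC, so the groups lay far apart. The IFT genes summed to 268 ± 8.35 CPM (SD, n = 3) in RNA of ESC and 432 ± 6.95 CPM in NPC, and in ribosome-bound RNA to 267 ± 36.4 CPM in ESC and 491 ± 35.1 CPM in NPC. The BBS genes summed to 147 ± 14.9 CPM in RNA of ESC and 185 ± 5.97 CPM in NPC. Their ribosome-bound sum was 107 ± 17.8 CPM in ESC and 105 ± 8.26 CPM in NPC, and these groups overlapped. That sum hid opposite changes. BBS4 alone had a mean of 64.4 CPM in ESC and 32.8 CPM in NPC, while BBS1, BBS2 and BBS9 were called higher.

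The count of RNA calls depended on single libraries. Without ESC replicate 3 of the RNA libraries 39 members rose and 6 fell, while the background also went up, to 34.9% and 34.7%. Leaving out any other RNA library of the 6 gave 14 to 16 rises, with a background of 19.9% to 23.0%. The CEP genes accounted for most of this, with 19 of 35 higher without that ESC library and 5 or 6 higher without any other. A further 17 members were called in RNA without that library. Of these 15 rose, namely CEP44, CEP57, CEP63, CEP72, CEP76, CEP78, CEP95, CEP120, CEP290, CEP295, IFT43, IFT57, IFT88, BBS7 and BBS10, and 2 fell, namely CEP170B and PCNT. In ribosome-bound RNA the CEP count stayed between 20 and 24 whichever library was left out.

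Centriole assembly genes changed further in ribosome-bound RNA than in RNA. Of 12 members that act in duplication or elongation of centrioles, 2 rose in RNA (16.7%, where 26.4% of all genes rose), CEP97 and CEP192. In ribosome-bound RNA 8 rose (66.7%, where 31.6% of all genes rose). The medians were 0.16 in RNA and 1.64 in ribosome-bound RNA. The RNA count rested on ESC replicate 3, without which 8 of the 12 rose in RNA, where 34.9% of all genes rose. CEP63, CEP44, CEP120, CEP295, CEP57 and CEP76 were added there. CEP152, the scaffold that recruits the duplication kinase PLK4, had 11.3, 8.61 and 13.3 CPM of RNA in ESC and 9.43, 10.7 and 9.85 CPM in NPC, so the groups overlapped. Ribosome-bound CEP152 RNA was at 17.6, 13.6 and 13.3 CPM in ESC and 73.9, 62.1 and 60.7 CPM in NPC, a change of 2.18 ± 0.22 (adjusted p = 7.00e-06). CEP63, the partner of CEP152 in the ring around the mother centriole, rose by 2.21 ± 0.24 (adjusted p = 1.32e-05), and CEP135, a component of the cartwheel that templates new centrioles, rose by 2.18 ± 0.27 (adjusted p = 3.86e-05). CEP120, CEP57, CEP44 and CEP295 also rose, from 0.96 for CEP44 to 2.06 for CEP295, a protein that stabilises new centrioles. The CEP44 call was lost without NPC replicate 2, at 0.75 (adjusted p = 0.0917). CEP85, CEP97, CEP76 and CEP192 did not pass in ribosome-bound RNA, with values from -0.42 for CEP76 to 0.53 for CEP85.

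CEP97 and CEP192 were called in RNA alone, but with all libraries neither passed the test of the ratio of the assays. CEP97, a cap of the centriole that restrains cilium formation, rose in RNA from 15.2, 15.9 and 20.5 CPM to 30.3, 31.7 and 30.4 CPM, by 0.77 ± 0.14 (adjusted p = 0.00200). Ribosome-bound CEP97 RNA was at 24.8, 18.2 and 22.7 CPM in ESC and 27.5, 30.8 and 28.1 CPM in NPC. These groups did not overlap, but the change missed the threshold (0.43 ± 0.20, adjusted p = 0.0866). The ratio for CEP97 changed by -0.39 ± 0.25 (adjusted p = 0.215). Without RNA ESC replicate 3 it passed as a fall, at -0.55 (adjusted p = 0.0219). CEP192, which gathers pericentriolar material and was the CEP gene with the most RNA counts, had 90.9, 81.7 and 117.6 CPM of RNA in ESC and 135.8, 138.7 and 143.7 CPM in NPC. All NPC values lay above all ESC values, at 0.46 ± 0.13 (adjusted p = 0.0178), but the call was lost when any RNA library other than ESC replicate 3 was left out, with adjusted p from 0.0518 to 0.105. In ribosome-bound RNA it had 42.0, 14.0 and 33.3 CPM in ESC and 31.8, 49.3 and 39.5 CPM in NPC. Those groups overlapped (0.46 ± 0.31, adjusted p = 0.21), although the size of the change was the same as in RNA. The ratio for CEP192 changed by -0.05 ± 0.36 (adjusted p = 0.929). Without RNA ESC replicate 3 and ribosome-bound ESC replicate 2 together it passed as a fall, at -0.51 (adjusted p = 0.0168).

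Genes of the distal and subdistal appendages, which dock the centriole at the membrane and anchor microtubules, had the highest ribosome-bound median of the role groups. Of these 8 members, 7 were tested in ribosome-bound RNA and all 7 rose, with a median of 2.10, whereas in RNA 2 rose, 2 fell and the median was -0.18. CEP164, the distal appendage protein that recruits the kinase TTBK2 to start a cilium, had 35.0, 32.8 and 32.4 CPM of RNA in ESC and 50.0, 51.4 and 47.3 CPM in NPC. Its ribosome-bound RNA went from 15.3, 8.67 and 8.60 CPM to 51.3, 70.3 and 59.5 CPM, by 2.51 ± 0.25 (adjusted p = 8.12e-06), and neither assay's groups overlapped. CEP83, which places the distal appendages, had RNA changed by -0.43 ± 0.18 (adjusted p = 0.0742), which missed the threshold, and rose by 1.78 ± 0.25 in ribosome-bound RNA. CEP89 rose in both assays, by 0.41 ± 0.15 and 1.07 ± 0.21, but its RNA call was lost when any RNA library other than ESC replicates 2 and 3 was left out.

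The subdistal appendage genes NIN and CEP128 moved in opposite directions in the assays. NIN codes for ninein, which anchors microtubule ends at the mother centriole, and spans chr14:50719763-50831503 on the minus strand (GRCh38.p14). Its RNA was 35.5, 34.3 and 42.2 CPM in ESC and 26.8, 27.1 and 26.5 CPM in NPC, a fall to all NPC values below all ESC values (-0.54 ± 0.12, adjusted p = 0.00509). Its ribosome-bound RNA was 36.5, 41.3 and 33.6 CPM in ESC and 160.3, 162.6 and 185.8 CPM in NPC, a 4.68-fold rise (2.23 ± 0.20, adjusted p = 3.53e-06). CEP128 had 11.2, 10.5 and 13.8 CPM of RNA in ESC and 8.13, 9.34 and 9.76 CPM in NPC (-0.44 ± 0.15, adjusted p = 0.0391). Its ribosome-bound RNA rose from 13.0, 8.67 and 11.4 CPM to 29.0, 30.5 and 34.6 CPM (1.54 ± 0.23, adjusted p = 1.22e-04). The RNA fall of CEP128 is the less certain of the pair, since it was lost when any RNA library other than ESC replicates 2 and 3 was left out, with adjusted p from 0.0678 to 0.155. CEP350 and CEP170, which associate with the subdistal appendages and microtubules, were not called in RNA and rose in ribosome-bound RNA by 2.30 ± 0.25 and 2.10 ± 0.29. CEP170 went from 14.0, 4.95 and 13.6 CPM to 44.0, 45.0 and 49.9 CPM, and CEP350 from 37.1, 17.7 and 33.0 CPM to 148.1, 133.3 and 140.9 CPM.

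**Figure D2:**
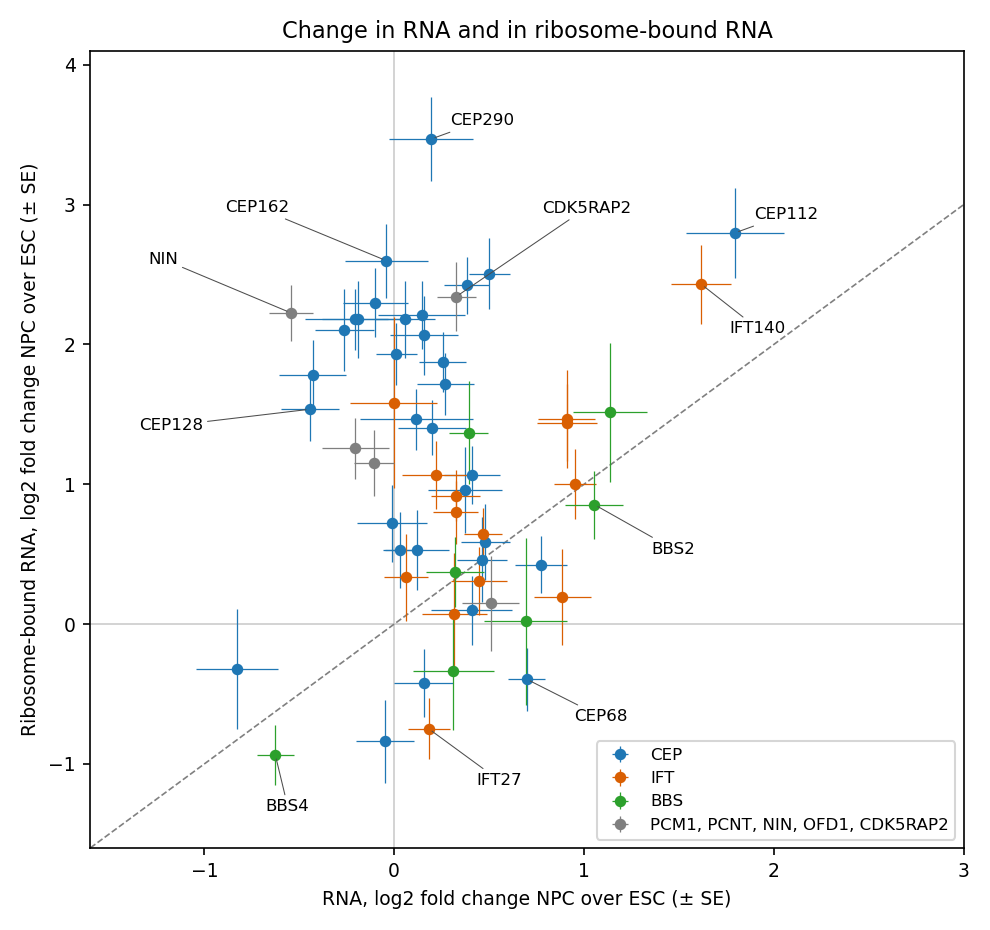
Each point is a member gene, with its log2 fold change of NPC over ESC in RNA on the horizontal axis and in ribosome-bound RNA on the vertical axis, bars giving ± SE. The dashed line marks equal change in both assays. CEP290 (0.19 and 3.47), NIN (-0.54 and 2.23) and most CEP genes stand above the line, while CEP68 and IFT27 stand below it.

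Pericentriolar material genes included a gene with no RNA call and a large ribosome-bound rise. PCNT codes for pericentrin, the long coiled-coil scaffold of this material. Its RNA was 82.7, 85.4 and 73.9 CPM in ESC and 77.6, 77.3 and 81.3 CPM in NPC, which overlapped (-0.11 ± 0.11, adjusted p = 0.432), and without ESC replicate 3 the RNA change passed as a fall, at -0.18 (adjusted p = 0.0144). Ribosome-bound PCNT RNA was at 64.5, 33.4 and 46.3 CPM in ESC and 95.9, 126.4 and 91.2 CPM in NPC, 2.23-fold higher (1.15 ± 0.24, adjusted p = 0.00120). CDK5RAP2 recruits the gamma-tubulin ring complex to the centrosome and is a gene of inherited microcephaly, at chr9:120388875-120580167 on the minus strand. It had 61.3, 67.3 and 73.8 CPM of RNA in ESC and 84.4, 87.1 and 94.6 CPM in NPC. Its ribosome-bound RNA was 76.6, 38.0 and 67.1 CPM in ESC and 296.3, 287.9 and 311.2 CPM in NPC. The RNA rise was small (0.33 ± 0.10, adjusted p = 0.0292) and was lost when any RNA library other than ESC replicate 3 was left out, with adjusted p from 0.0680 to 0.175. The ribosome-bound rise was 5.07-fold (2.34 ± 0.24, adjusted p = 9.83e-06).

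Of the 5 satellite genes, PCM1, CEP131 and CEP290 rose in ribosome-bound RNA, and OFD1 alone rose in RNA. CEP290, which bridges the ciliary membrane and microtubules in the transition zone and is mutated in Joubert syndrome, was the member with the largest ribosome-bound rise. It spans chr12:88049016-88142088 on the minus strand. Its RNA was 4.18, 3.96 and 6.86 CPM in ESC and 6.52, 5.27 and 6.09 CPM in NPC, overlapping between states (0.19 ± 0.22, adjusted p = 0.49). In the ribosome-bound libraries it had 3.91, 1.65 and 3.60 CPM in ESC and 36.3, 37.6 and 29.0 CPM in NPC, from 29 and 380 counts in all, an 11.1-fold rise (3.47 ± 0.30, adjusted p = 2.56e-06). Without RNA ESC replicate 3 the RNA change of CEP290 passed the test at 0.46 (adjusted p = 0.0102), which was still far below the ribosome-bound change.

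PCM1, the scaffold on which satellites form, had 68.2, 64.5 and 106.6 CPM of RNA in ESC and 69.5, 72.4 and 74.7 CPM in NPC. ESC replicate 3 alone stood above the rest, and the change was not called (-0.20 ± 0.18, adjusted p = 0.364). Its ribosome-bound RNA rose from 110.1, 61.5 and 96.8 CPM to 209.5, 210.4 and 203.3 CPM (1.26 ± 0.22, adjusted p = 3.78e-04). OFD1, a satellite and centriole protein needed for distal appendages, had 11.5, 10.9 and 15.1 CPM of RNA in ESC and 18.1, 18.4 and 19.2 CPM in NPC (0.51 ± 0.15, adjusted p = 0.0204). Its ribosome-bound values of 22.8, 8.26 and 13.0 CPM in ESC and 14.7, 21.6 and 11.9 CPM in NPC overlapped (0.15 ± 0.34, adjusted p = 0.723). The OFD1 RNA call was lost when any RNA library other than ESC replicate 3 was left out, with adjusted p from 0.0616 to 0.112. CEP131 rose in ribosome-bound RNA by 1.47 ± 0.22, and CEP72 was called in neither assay.

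The pair of linker genes, which tie the 2 centrioles together until mitosis, separated in ribosome-bound RNA. CEP250, or C-Nap1, from which linker fibres grow, had 60.8, 56.4 and 50.1 CPM of RNA in ESC and 73.0, 80.1 and 76.1 CPM in NPC (0.38 ± 0.12, adjusted p = 0.0263). Its ribosome-bound RNA rose from 45.9, 29.3 and 37.7 CPM to 186.0, 213.0 and 192.8 CPM (2.42 ± 0.21, adjusted p = 2.22e-06). CEP68, a fibre component at chr2:65056416-65087004 on the plus strand, had 44.7, 43.1 and 43.3 CPM of RNA in ESC and 75.8, 72.7 and 74.5 CPM in NPC (0.70 ± 0.10, adjusted p = 5.69e-04). Its ribosome-bound RNA did not pass the test, with 31.6, 21.1 and 31.9 CPM in ESC and 18.9, 25.1 and 19.1 CPM in NPC (-0.39 ± 0.22, adjusted p = 0.147). Without ESC replicate 2 of the ribosome-bound libraries it passed as a fall, at -0.54 (adjusted p = 0.0208). The RNA call of CEP250 was lost when any RNA library other than ESC replicates 1 and 3 was left out, with adjusted p from 0.0523 to 0.110. CEP68 overlaps RAB1A, so part of its counts may belong to that gene.

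The other CEP genes followed the same direction with exceptions. CEP162, which promotes assembly of the transition zone, had 5.31, 6.61 and 9.63 CPM of RNA in ESC and 6.21, 7.75 and 7.86 CPM in NPC. Its ribosome-bound RNA rose from 6.19, 4.54 and 8.04 CPM to 40.6, 42.1 and 30.8 CPM (2.60 ± 0.27, adjusted p = 8.36e-06). CEP112, a little-studied coiled-coil protein, rose in both assays. Its RNA went from 0.886, 1.04 and 1.64 CPM to 5.29, 3.82 and 3.79 CPM (1.79 ± 0.26, adjusted p = 7.02e-04), and its ribosome-bound RNA from 2.28, 2.06 and 2.22 CPM to 15.3, 16.8 and 13.3 CPM (2.80 ± 0.32, adjusted p = 1.96e-05). CEP170B, CEP95 and CEP55, the last a protein of the bridge that separates daughter cells, also rose in ribosome-bound RNA, at 2.18, 1.71 and 0.72. The CEP55 call was lost without any 1 of ESC replicates 2 and 3 and the 3 NPC libraries, with adjusted p from 0.0572 to 0.108. CEP295NL, which lies within the span of TIMP2, rose in RNA from 2.51, 1.96 and 1.23 CPM to 5.71, 4.78 and 4.47 CPM (1.31 ± 0.26, adjusted p = 0.00344). CEP70 rose in RNA alone, at 0.48 ± 0.13 (adjusted p = 0.0151), a call lost without any RNA library other than ESC replicate 3 and NPC replicate 1, with adjusted p from 0.0534 to 0.0800. In ribosome-bound RNA CEP70 passed without ESC replicate 2 or NPC replicate 3, at 0.67 and 0.80 (adjusted p = 0.0300 and 0.0348).

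Falls among CEP genes were few. CEP85L fell in RNA from 6.74, 6.84 and 11.1 CPM to 4.22, 5.10 and 5.14 CPM (-0.83 ± 0.21, adjusted p = 0.0125). That call was lost without NPC replicate 1, at -0.74 (adjusted p = 0.0565). CEP41, a ciliary protein needed for tubulin glutamylation, fell in ribosome-bound RNA from 16.0, 11.1 and 17.5 CPM to 6.72, 11.4 and 6.52 CPM. The groups overlapped through ESC replicate 2, and the call (-0.84 ± 0.30, adjusted p = 0.0271) was lost without ESC replicate 1, ESC replicate 3, NPC replicate 1 or NPC replicate 3, with adjusted p from 0.0571 to 0.129. CEP85, CEP72, CEP78 and CEP76 were called in neither assay with all libraries. Without ribosome-bound ESC replicate 2 CEP76 passed as a fall in ribosome-bound RNA, at -0.63 (adjusted p = 0.00520). Without ribosome-bound ESC replicate 1 CEP85 and CEP78 passed there as rises, at 0.75 and 0.79 (adjusted p = 0.0391 for each). CEP19 and CEP126 were not called in RNA.

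**Figure D3:**
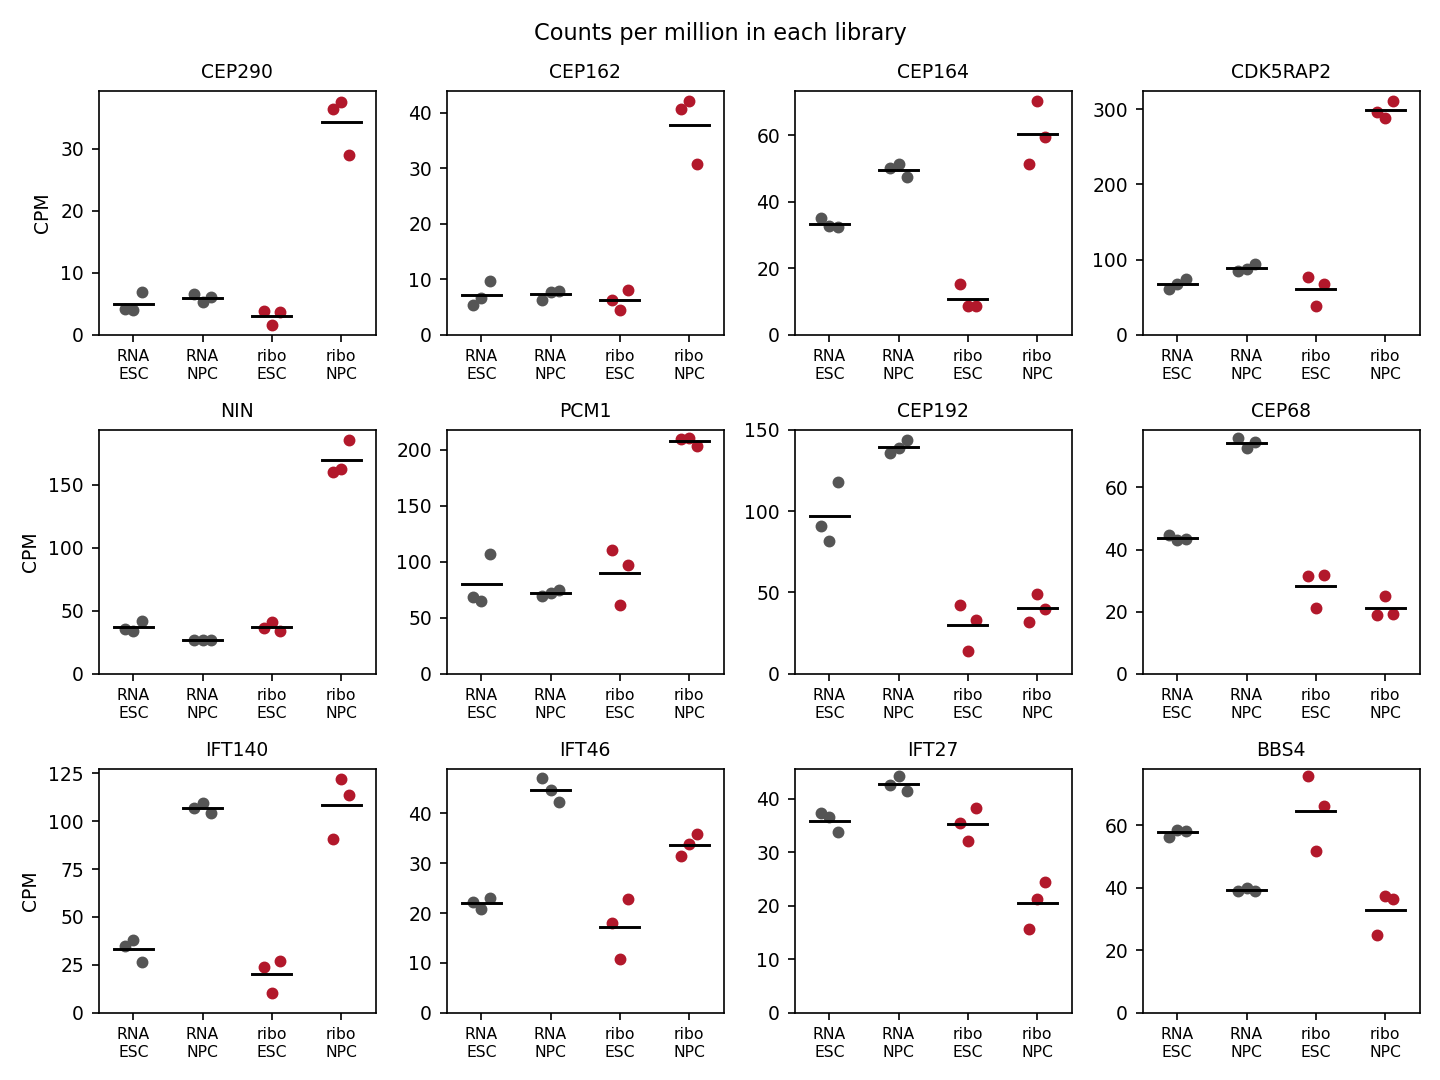
CPM of 12 members in each of the 12 libraries, grey for RNA and red for ribosome-bound RNA, with a bar at the mean of the 3 libraries and each panel on its own scale from 0. In NIN, CEP290, CEP162 and CDK5RAP2 the ribosome-bound NPC libraries stand apart from the other 9, while in IFT140 and IFT46 the NPC libraries are higher in both assays and in BBS4 lower in both.

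Most intraflagellar transport genes that rose in RNA rose in ribosome-bound RNA too. IFT-A trains carry cargo back from the ciliary tip and bring receptors in. Of the 3 IFT-A genes among the members, IFT122 and IFT140 rose in RNA, and all 3 rose in ribosome-bound RNA. IFT-A genes of other names are outside the naming rule and did not all rise. WDR19 rose in both assays, by 1.05 ± 0.11 and 0.97 ± 0.30. WDR35 (-0.37 in RNA and 0.05 in ribosome-bound RNA) and TTC21B (-0.13 and -0.28) were called in neither assay. IFT140, at chr16:1510427-1612072 on the minus strand, was the IFT gene with the most RNA counts and the largest change. Its RNA was 35.0, 38.0 and 26.3 CPM in ESC and 107.0, 109.3 and 104.0 CPM in NPC, a 3.07-fold rise (1.62 ± 0.16, adjusted p = 8.74e-05). Its ribosome-bound RNA was 23.8, 10.3 and 27.2 CPM in ESC and 90.4, 121.9 and 113.7 CPM in NPC, a 5.39-fold rise (2.43 ± 0.28, adjusted p = 2.14e-05). IFT140 overlaps TELO2 and TMEM204, and how reads shared with them were counted is not given. IFT43, a small IFT-A subunit, rose in ribosome-bound RNA from 35.5, 35.9 and 37.2 CPM to 66.6, 71.5 and 62.7 CPM (0.92 ± 0.18, adjusted p = 9.65e-04), and its RNA change of 0.32 ± 0.13 missed the threshold (adjusted p = 0.0682). IFT122 changed by 0.32 ± 0.12 in RNA (adjusted p = 0.0481), a call lost without any of the RNA libraries except ESC replicate 3, with adjusted p from 0.0569 to 0.138.

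Of the 11 members that are IFT-B genes, whose trains move outward, 6 rose in RNA, and 6 rose and 1 fell in ribosome-bound RNA. IFT46 had 22.2, 20.9 and 23.1 CPM of RNA in ESC and 47.2, 44.8 and 42.3 CPM in NPC (0.95 ± 0.11, adjusted p = 2.34e-04). IFT81, whose product binds tubulin cargo together with IFT74, went from 6.30, 6.19 and 8.50 CPM to 13.0, 13.6 and 14.6 CPM (0.91 ± 0.16, adjusted p = 0.00176). IFT74 went from 2.21, 2.57 and 2.61 CPM to 4.79, 4.93 and 4.87 CPM (0.91 ± 0.15, adjusted p = 0.00139). These 3 genes rose again in ribosome-bound RNA, at 1.00 ± 0.25, 1.44 ± 0.28 and 1.47 ± 0.35. IFT20, the subunit that also sits at the Golgi, rose in RNA from 4.03, 4.88 and 4.45 CPM to 8.55, 9.37 and 8.05 CPM (0.89 ± 0.15, adjusted p = 0.00168). Its ribosome-bound values of 4.24, 6.19 and 4.99 CPM in ESC and 5.50, 5.98 and 5.62 CPM in NPC overlapped.

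IFT52 and IFT22 also rose in RNA, by 0.47 ± 0.10 and 0.45 ± 0.15. The IFT22 call was lost without ESC replicate 1 or any NPC library, with adjusted p from 0.0847 to 0.111. IFT57 rose in ribosome-bound RNA alone, from 24.1, 30.1 and 21.1 CPM to 60.2, 54.4 and 39.3 CPM (1.07 ± 0.24, adjusted p = 0.00253). IFT80 rose in ribosome-bound RNA at 1.58 ± 0.61 (adjusted p = 0.0400). The IFT80 values were low, at 1.63, 4.54 and 0.277 CPM in ESC and 5.80, 5.98 and 5.62 CPM in NPC. The call was lost without any library other than ESC replicate 2, with adjusted p from 0.0782 to 0.148, and without ESC replicate 2 the value was 2.69. IFT52 rose in ribosome-bound RNA by 0.64 ± 0.19, a call lost without ESC replicate 3 at 0.53 (adjusted p = 0.0649). IFT88 and IFT172, both central subunits of the train, were called in neither assay, at 0.32 and 0.06 in RNA and 0.07 and 0.33 in ribosome-bound RNA.

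IFT27, a small GTPase that helps the BBSome leave the cilium, went down in ribosome-bound RNA. It lies at chr22:36758211-36776119 on the minus strand. Its RNA was 37.3, 36.7 and 33.8 CPM in ESC and 42.6, 44.2 and 41.4 CPM in NPC (0.18 ± 0.11, adjusted p = 0.205). Its ribosome-bound RNA was 35.5, 32.2 and 38.3 CPM in ESC and 15.6, 21.4 and 24.5 CPM in NPC, with no overlap (-0.75 ± 0.22, adjusted p = 0.0102). The call was lost without NPC replicate 1, at -0.59 (adjusted p = 0.0606).

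Among the 6 members that are BBSome subunits, BBS1, BBS2, BBS5 and BBS9 rose in RNA and BBS4 fell. The subunit genes TTC8 and BBIP1 are outside the naming rule, and neither was called in RNA (0.17 ± 0.14 and 0.48 ± 0.20). BBS2, at chr16:56470403-56520024 on the minus strand, had 23.5, 21.4 and 31.7 CPM of RNA in ESC and 52.2, 56.0 and 57.9 CPM in NPC, a 2.08-fold rise (1.05 ± 0.15, adjusted p = 6.90e-04). Its ribosome-bound RNA rose from 18.9, 11.6 and 23.3 CPM to 29.0, 34.2 and 32.6 CPM (0.85 ± 0.24, adjusted p = 0.00918). BBS5 was low in ESC, with 0.295, 0.423 and 0.256 CPM, and had 2.07, 2.71 and 2.94 CPM in NPC (2.87 ± 0.28, adjusted p = 9.15e-05), the largest RNA change among the members. BBS1 rose from 1.28, 1.34 and 1.79 CPM to 2.95, 3.56 and 3.61 CPM (1.14 ± 0.19, adjusted p = 0.00162). In ribosome-bound RNA BBS1 rose by 1.52 ± 0.50 (adjusted p = 0.0194), a call lost without ESC replicate 3, NPC replicate 1 or NPC replicate 2, with adjusted p from 0.0511 to 0.103. BBS9 rose by 0.39 ± 0.10 in RNA and by 1.37 ± 0.37 in ribosome-bound RNA, and its RNA call was lost without any RNA library other than ESC replicate 3, with adjusted p from 0.0535 to 0.0678.

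BBS4, which links the BBSome to PCM1 at satellites and was the BBS gene with the most RNA counts, went the other way from BBS1, BBS2, BBS5 and BBS9. It lies at chr15:72686207-72738473 on the plus strand and overlaps no other gene. Its RNA was 56.2, 58.6 and 58.3 CPM in ESC and 38.9, 39.8 and 38.9 CPM in NPC (-0.63 ± 0.10, adjusted p = 0.00107). In ribosome-bound RNA BBS4 had 75.6, 51.6 and 66.0 CPM in ESC and 24.7, 37.3 and 36.4 CPM in NPC (-0.94 ± 0.21, adjusted p = 0.00246). Neither assay's groups overlapped, and BBS4 was the only member called lower in both. BBS7 was called in neither assay. Of the chaperonin-like genes BBS10 and BBS12, whose products fold BBSome subunits, BBS12 rose in RNA by 0.69 ± 0.22 (adjusted p = 0.0285), a call lost without any RNA library other than ESC replicate 3, with adjusted p from 0.0548 to 0.119. Neither was called in ribosome-bound RNA.

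Many ciliary genes carry an X-box near their start, the paired site of RFX transcription factors. Of the 6 RFX genes on the list 2 rose in RNA (33.3%, where 26.4% of all genes rose), RFX3 by 0.93 ± 0.14 and RFX2 by 0.71 ± 0.17. RFX7 fell in RNA by 0.39 ± 0.12, and RFX1, RFX4 and RFX5 were not called. In ribosome-bound RNA 3 of the 5 tested rose (60.0%, where 31.6% of all genes rose). They were RFX3 at 1.46 ± 0.22, RFX2 at 2.20 ± 0.41 and RFX5 at 1.26 ± 0.28. RefSeq promoters of GRCh38.p14, from 250 bases before to 50 after a start, were given for 54 members with 66 starts, and both strands were searched. The X-box consensus matched in 6 of these 66 promoters (9.09%), against 1.49% of 22198 promoters of all coding genes. The 4 matches in CEP genes are shown because the full paired site can be read in them, with the matching stretch in capitals, 57, 160, 228 and 174 bases before the start in order.
CEP135: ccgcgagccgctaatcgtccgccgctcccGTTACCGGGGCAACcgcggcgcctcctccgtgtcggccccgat
CEP41: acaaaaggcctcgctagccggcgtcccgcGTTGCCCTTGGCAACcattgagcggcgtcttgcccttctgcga
CEP57: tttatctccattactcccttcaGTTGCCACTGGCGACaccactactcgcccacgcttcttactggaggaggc
CEP112: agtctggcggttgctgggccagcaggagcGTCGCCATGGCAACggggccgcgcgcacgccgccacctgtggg
The windows are chr4:55948859-55948930 on the plus strand, chr7:130441134-130441205 on the minus strand, chr11:95790248-95790319 on the plus strand and chr17:66192265-66192336 on the minus strand. The starts used for CEP41 and CEP57 are internal ones. Their windows lie within the gene spans, chr7:130393771-130441741 and chr11:95790014-95832693. CEP112 rose in both assays, CEP135 and CEP57 in ribosome-bound RNA only, and CEP41 fell in ribosome-bound RNA. The other matches were in IFT122, which rose in both assays, and IFT57, which rose in ribosome-bound RNA only. Of the 6 genes with a match 5 thus rose in ribosome-bound RNA, beside 38 of the 58 members tested.

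The single arm GTTGCC, which can lie inside an X-box, was found in 23 of 66 member promoters (34.8%) and in 12.6% of all promoters. It was in 7 of 15 IFT promoters, 3 of 7 BBS promoters and 12 of 39 CEP promoters. The IFT promoters below belong to genes that rose in RNA, and capitals mark the arm or its reverse complement GGCAAC, 12, 237 and 196 bases before the start in order.
IFT122: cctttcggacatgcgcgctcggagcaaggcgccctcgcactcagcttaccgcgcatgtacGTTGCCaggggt
IFT74: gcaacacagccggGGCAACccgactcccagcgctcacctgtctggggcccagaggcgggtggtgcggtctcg
IFT46: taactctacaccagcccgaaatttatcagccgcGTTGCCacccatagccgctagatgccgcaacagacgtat
They lie at chr3:129440152-129440223 (plus strand), chr9:26946860-26946931 (plus strand) and chr11:118566089-118566160 (minus strand). The IFT122 arm is the first part of the X-box match of that gene counted above. That match runs past the start, where the printed window ends. The start used for IFT46 is also an internal one, within the gene span of chr11:118544543-118576898. Another element was found more often in CEP than in IFT or BBS promoters, a difference that was not tested. TTTGAA, the core of the cell-cycle genes homology region that the DREAM complex binds, was in 15 of 39 CEP promoters (38.5%), 1 of 15 IFT promoters, 0 of 7 BBS promoters and 12.4% of all promoters. CCAAT, the core of NF-Y sites, was in 31 of 66 member promoters (47.0%) and in 34.7% of all. No test was made of these shares, and a match is not evidence of binding.

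Translational efficiency, here a gene's ribosome-bound RNA over its total RNA, compared the change in the assays directly. The labels do not say whether RNA and ribosome-bound RNA came from the same cultures, and MIXL1 had a mean of 5.87 CPM in RNA of ESC and 173 CPM in ribosome-bound RNA of ESC. Differences between cultures and between the assays cannot be told apart in this ratio. The test was an assay-by-state interaction in a model of all 12 libraries, and the quantity is relative, since library totals were scaled away. Of the 58 members tested 22 rose and 2 fell, against a background of 22.9% higher and 19.0% lower among 11866 genes, with medians of 0.58 for the members and -0.05 for all genes. The rises were in 18 of 32 CEP genes and in PCM1, PCNT, NIN and CDK5RAP2. By edgeR 0 of 14 IFT genes rose (6 had an unadjusted p under 0.05) and IFT27 fell, and 0 of 7 BBS genes rose or fell (1 had an unadjusted p under 0.05). DESeq2 called 2 IFT genes (IFT80 and IFT43) and 1 BBS gene (BBS9) higher, and limma voom called IFT80 and IFT43 higher, as edgeR without the filter on low counts did for IFT80 (adjusted p = 0.0396). The interaction test found few of the moderate changes put into simulated data, so these counts do not show that efficiency of the IFT and BBS genes was unchanged. The family medians were 1.34 for CEP, 0.32 for IFT and -0.24 for BBS. That the CEP genes differ from the IFT and BBS genes in this measure was not tested.

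**Figure D4:**
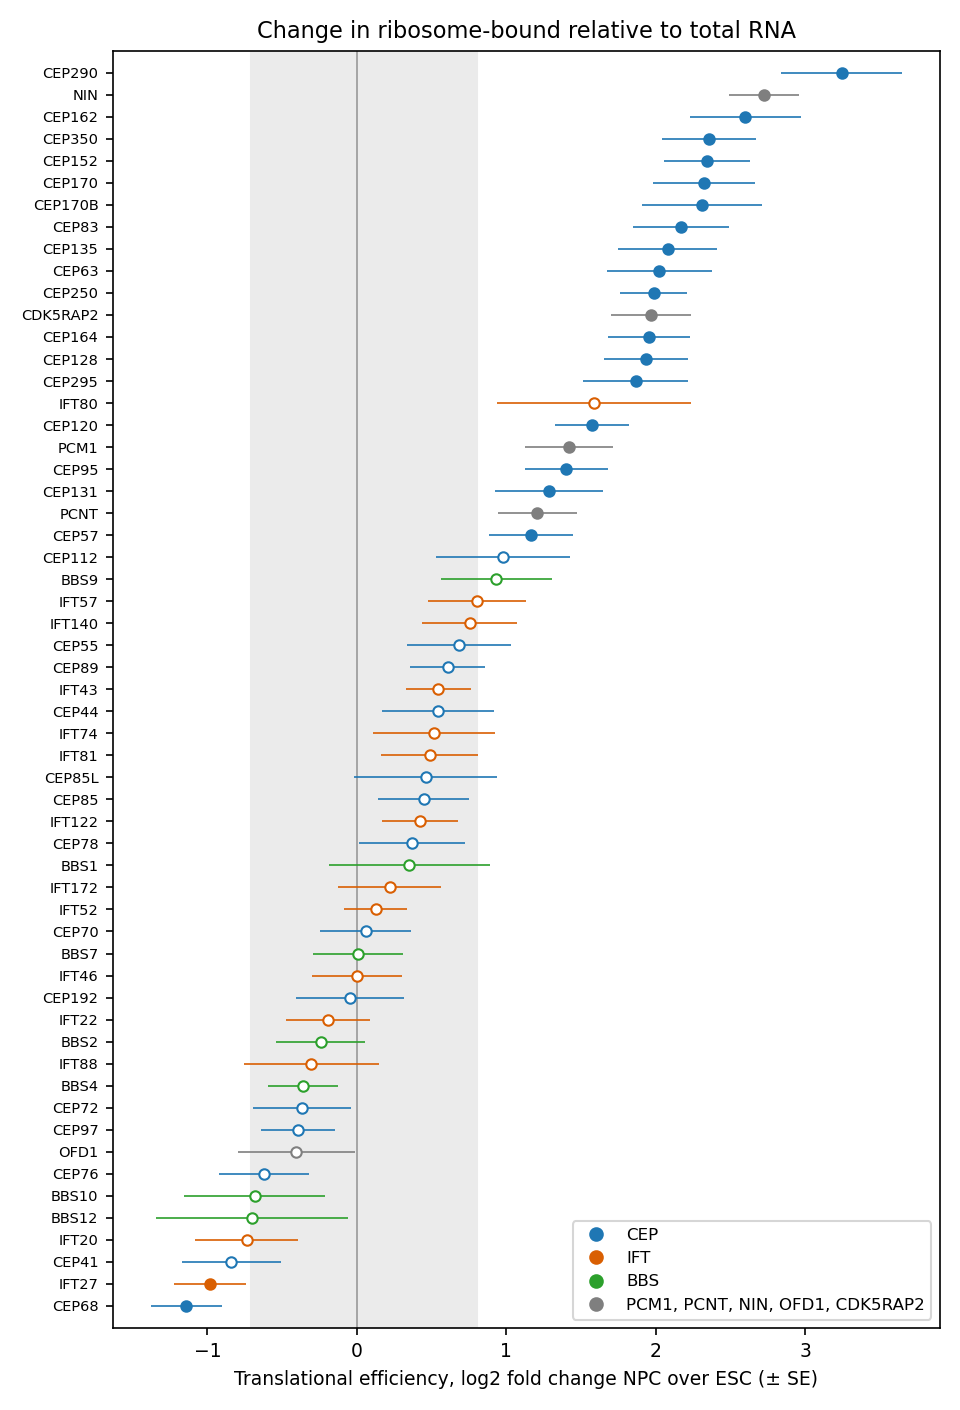
Change in translational efficiency of NPC over ESC for the members reported by name, as log2 ± SE, in order of size. Filled points passed the test and the grey band runs from the lower to the upper quartile of all genes tested. CEP290 and NIN lead at 3.24 and 2.73, and CEP68 and IFT27 close the order at -1.14 and -0.98.

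Read within a state, the ratio of ribosome-bound to RNA CPM shows where each gene began, as log2 of mean CPM with 0.5 added. NIN stood at -0.01 in ESC and 2.64 in NPC, and the change in efficiency was 2.73 ± 0.23 (adjusted p = 1.10e-06). CEP162 went from -0.19 to 2.30 (2.60 ± 0.37, adjusted p = 6.53e-05), CEP152 from 0.41 to 2.65 (2.34 ± 0.29, adjusted p = 1.86e-05) and CEP290 from -0.63 to 2.43 (3.24 ± 0.41, adjusted p = 2.07e-05). CEP350 and CEP170 began lower, at -1.04 and -2.69, and ended at 1.24 and -0.45, with changes of 2.36 ± 0.32 and 2.32 ± 0.34. The 8 IFT genes with RNA rises moved either way. The ratio went from -0.68 to 0.03 for IFT140, from 1.24 to 1.78 for IFT74 and from 0.19 to -0.56 for IFT20, while IFT46 was at -0.36 and -0.40, and none of the 8 passed the efficiency test. For CEP68 the ratio went from -0.62 to -1.80 (-1.14 ± 0.24, adjusted p = 0.00135) and for IFT27 from -0.02 to -1.04 (-0.98 ± 0.24, adjusted p = 0.00416). The 3 IFT-A members had changes of 0.42 to 0.76, none of which passed by edgeR (2 had an unadjusted p under 0.05). However, IFT140 passed at 0.88 (adjusted p = 0.0225) without RNA ESC replicate 3 and at 0.99 (adjusted p = 0.0315) without ribosome-bound ESC replicate 3.

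By role, efficiency rose in 7 of 12 centriole assembly genes, 6 of 7 appendage genes, 2 of 3 pericentriolar material genes and 3 of 5 satellite genes, with CEP192 counted under both assembly and material. In total 15 CEP genes rose in ribosome-bound RNA and in efficiency with no call in RNA. Without RNA ESC replicate 3, 7 of these 15 were called in RNA (CEP63, CEP120, CEP295, CEP57, CEP290 and CEP95 higher and CEP170B lower), and 8 CEP genes then showed this pattern. Leaving out both libraries that stood apart, RNA ESC replicate 3 and ribosome-bound ESC replicate 2, gave 28 rises and 9 falls among the members, with a background of 29.5% and 29.3%. In that fit 19 CEP genes rose and 5 fell, 4 IFT genes rose and 1 fell, and 1 BBS gene rose and 2 fell. Among the 37 members without an overlapping coding gene, 13 rose and 1 fell.

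Change in efficiency went with the length of the gene across the whole table, and many centrosome genes are long. Over all genes split into 4 classes of equal number by gene span (first to last base with introns), the median change from short to long was -0.51, -0.22, 0.04 and 0.56, and 11.2%, 16.4%, 24.3% and 39.5% rose. Among the members, 26 were in the longest class, of which 14 rose with a median of 1.50. In the other classes, from long to short, 6 of 22, 2 of 7 and 0 of 3 members rose, with medians of 0.29, 0.35 and -0.68. The correlation across genes (not independent of each other) between log10 span and the change was r = 0.49 over the 58 members and 0.31 over 11687 genes. The median span was 68.7 kb for CEP genes, 70.9 kb for IFT genes and 45.3 kb for BBS genes. With the trend on span removed from each library, 18 CEP genes still rose in efficiency with a median of 1.12, and the IFT and BBS medians were 0.08 and -0.15. Over all genes 20.7% rose in that fit. In that fit the change in efficiency of CDK5RAP2 was 1.30, of CEP350 1.73, of CEP83 1.49, of CEP63 1.20 and of CEP128 0.99. In ribosome-bound RNA it left 1.99 for CEP112, 1.19 for CEP83, 1.52 for CEP63 and 0.75 for CEP128, and the calls of BBS9, IFT122, IFT52 and IFT80 were lost. The RNA fall of CEP128 was -0.20 there (adjusted p = 0.206). Coding length was not examined.

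Related genes outside the naming rule were read against the same background, in which 26.4% of all genes rose in RNA, 31.6% in ribosome-bound RNA and 22.9% in efficiency. The shares of all genes that fell were 26.2%, 30.3% and 19.0%. Of 20 other genes of pericentriolar material, satellites and appendages, 7 rose in RNA (35.0%), 15 in ribosome-bound RNA and 9 in efficiency (45.0%). FBF1, a distal appendage protein, rose in RNA by 1.32 ± 0.14. Its ribosome-bound level was 4.47 ± 1.28 CPM (SD, n = 3) in NPC and 0.138 ± 0.238 CPM in ESC, which is under the limit set by depth, so no fold is given. TTBK2, the kinase recruited by CEP164, rose by 3.10 ± 0.38 in ribosome-bound RNA. Of 11 other centriole duplication genes 3 rose (27.3%) and 1 fell in RNA, and 3 of the 10 tested rose (30.0%) and 1 fell in ribosome-bound RNA, shares near the background of rises. PLK4, the duplication kinase, fell in RNA by 0.65 ± 0.20, STIL, its cofactor, fell in ribosome-bound RNA by 0.70 ± 0.21, and CNTROB rose in ribosome-bound RNA by 2.07 ± 0.23.

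Of 18 further intraflagellar transport and motor genes 11 rose (61.1%) and 1 fell in RNA, 9 rose (50.0%) and 2 fell in ribosome-bound RNA, and 4 rose (22.2%) and 1 fell in efficiency. The kinesin genes KIF17 and KIFAP3 rose in RNA by 1.16 ± 0.25 and 1.09 ± 0.24, and TTC26, or IFT56, fell in RNA by 0.58 ± 0.17 and in ribosome-bound RNA by 1.31 ± 0.33. TRAF3IP1, or IFT54, rose in ribosome-bound RNA by 2.42 ± 0.23. Of 7 other BBSome genes and partners 0 rose and 3 fell in RNA (42.9%), among them RAB3IP at -0.80 ± 0.13 and MKKS at -0.74 ± 0.13. RAB3IP, or Rabin8, rose in ribosome-bound RNA by 1.54 ± 0.26, and TTC8, or BBS8, fell there by 0.73 ± 0.22. Of 20 transition zone genes 10 rose in RNA (50.0%), among them TCTN1 at 1.63 ± 0.15, while 4 of 17 rose in ribosome-bound RNA (23.5%, below the background), and 3 rose and 3 fell in efficiency, from AHI1 at 1.89 ± 0.40 to TMEM67 at -1.53 ± 0.36.

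Of 9 genes of ciliary Hedgehog signalling 5 rose (55.6%) and 1 fell in RNA and 7 rose (77.8%) and 1 fell in ribosome-bound RNA. GLI3, whose product is cut to its repressor form at the cilium, rose by 2.03 ± 0.09 in RNA and 4.46 ± 0.23 in ribosome-bound RNA. GLI1 fell by 5.05 ± 0.27 in RNA and by 3.91 ± 0.42 in ribosome-bound RNA. PTCH1 on the same list went the other way, with rises of 0.43 ± 0.11 in RNA and 1.13 ± 0.21 in ribosome-bound RNA. Activity of the pathway was not tested. The 12 markers of motile cilia summed to 33.0 to 34.8 CPM in RNA of ESC and 33.1 to 34.3 CPM in NPC, and in ribosome-bound RNA to 20.5 to 32.3 CPM in ESC and 70.6 to 87.8 CPM in NPC. The level sum in RNA hid opposite changes, since of 8 tested DNAH5, DNAI1, CCDC40 and HYDIN rose and DNAH9 and DNAH11 fell, the last from a mean of 15.1 to 1.69 CPM. In ribosome-bound RNA CCDC40, which helps set the spacing of axonemal structures, made up most of the sum, with 9.54 ± 3.47 CPM (SD, n = 3) in ESC and 58.7 ± 7.16 CPM in NPC. Their defining regulators MCIDAS and GMNC were at or below 1.06 CPM on average in each group, and FOXJ1 lay between 3.68 and 5.07 CPM.

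Cell division and other cell types were read from marker lists beside these results, and their part in them was not tested. Of 12 mitotic genes 2 rose and 3 fell in RNA, where 26.4% of all genes rose and 26.2% fell. In ribosome-bound RNA 2 of the 12 rose (16.7%, where 31.6% of all genes rose) and 7 fell (58.3%, where 30.3% of all genes fell). MKI67 and TOP2A rose in ribosome-bound RNA by 2.16 ± 0.30 and 1.16 ± 0.39, and AURKA fell by 1.18 ± 0.23. The mitotic list summed to 1876 to 2206 CPM in RNA of ESC and 1875 to 1934 CPM in NPC, and in ribosome-bound RNA to 1807 to 3025 CPM in ESC and 2174 to 2655 CPM in NPC. The 6 neuron markers summed to 23.7 to 30.8 CPM in RNA of ESC and 14.1 to 15.5 CPM in NPC, and to 88.7 to 155.7 and 33.0 to 37.6 CPM in ribosome-bound RNA. The 4 neural crest markers summed to 43.1 to 44.4 CPM in RNA of ESC and 38.4 to 41.7 CPM in NPC, and to 31.9 to 43.5 and 37.0 to 45.8 CPM in ribosome-bound RNA. Within these sums SNAI2 and SOX10 rose in both assays and FOXD3 fell in both. SNAI2 had means of 0.435 and 7.28 CPM in RNA of ESC and NPC and 0.712 and 15.5 CPM in ribosome-bound RNA, and FOXD3 changed by -1.26 ± 0.29 and -2.14 ± 0.27.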

How the data were processed

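The deposited values are counts per gene as the authors made them, whole numbers without normalization, in a table with a column for each of the 12 libraries. Tools listed in the submitters' processing notes were STAR 2.7.1a, Bowtie 1.2, featureCounts 1.6.4 and cutadapt 1.18, with GRCh38 (hg38) as build. Annotation, strand setting and handling of reads with more than 1 match were not given in the sources used here.

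Members were found by symbol, with pseudogenes read as names that carry a P after the number, and all 62 matched RefSeq (GRCh38.p14). Members, roles and gene lists were chosen with earlier results of these data known. Each assay was fitted in edgeR 4.0.16 (quasi-likelihood test, TMM scaling, filterByExpr, Benjamini-Hochberg adjustment over all genes, threshold 0.05) in R 4.3.3. Efficiency was the interaction of assay and state on genes that passed the filter in both assays. The SE of a log2 change was its size over the square root of F. The fits were checked on simulated data.

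Members given in full were, per comparison, up to 5 rises and 5 falls past the threshold with groups that did not overlap and a mean of at least 5 CPM, the 5 single genes, and the CEP, IFT and BBS gene with the highest RNA level. Other members are named to account for nearly all, and 1 that enters the counts is not reported here. From each list the largest changes in each direction were named, and WDR19, WDR35, TTC21B and BBIP1 were added as subunits outside the naming rule. Levels were not compared between genes, since lengths of transcripts were not used. Alternatives were other size factors, DESeq2 1.42.0, limma 3.58.1, other filters, a replicate block, leaving out libraries and removal of a trend on gene span, the last and the joint removal of a pair of libraries being added after seeing the data. Figures were drawn with matplotlib 3.10.9.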

Additional observations from a re-analysis of the deposited data

Results flagged for a closer look

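NIN and CEP128 were called in opposite directions in the assays, lower in RNA and higher in ribosome-bound RNA of NPC. The difference itself passed the interaction test. That test uses the same counts as the calls by which the pair was picked, so its passing is no separate support. For NIN the change in ribosome-bound RNA less that in RNA was 2.73 on the log2 scale, and for CEP128 it was 1.94. Both are genes of the subdistal appendages. The difference kept its call under every alternative run for both genes, and with the trend on gene span removed it was 0.99 for CEP128. The RNA call of CEP128 was lost without ESC replicate 1 or any NPC library.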

How the results depend on the processing

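No called change of a member reversed its direction under any alternative run. Of the 28 RNA calls 16 held under all 14 settings, of the 41 ribosome-bound calls 32 held under all 14, and of the 24 efficiency calls 24 held under all 21. Leaving out a library in turn gave 14 to 39 members higher and 2 to 6 lower in RNA, 34 to 39 higher and 1 to 5 lower in ribosome-bound RNA, and 22 to 25 higher and 2 to 6 lower in efficiency. The 39 higher in RNA came without RNA_ESC replicate 3. In the same fits the share of all genes higher was 19.9% to 34.9% in RNA, 28.0% to 34.8% in ribosome-bound RNA and 19.8% to 25.8% in efficiency. The share of all genes lower was 21.0% to 34.7%, 24.8% to 33.3% and 14.6% to 23.9%. The RNA calls of IFT122 and CDK5RAP2 were lost with relative log expression size factors, with DESeq2 and with either other filter on low counts, that of CEP89 with relative log expression size factors and with either other filter (adjusted p = 0.0552, 0.0580 and 0.0534), and that of CEP128 with upper-quartile scaling and with no filter (adjusted p = 0.0654 and 0.0750). The ribosome-bound call of CEP55 was lost with DESeq2 (adjusted p = 0.0512). Members lower in efficiency numbered 4 with DESeq2, 4 with the gene span trend removed and 9 without RNA_ESC replicate 3 and RIBO_ESC replicate 2 together, and the cause was not tested. Over all genes the share lower in efficiency was also larger in these settings, at 24.1%, 20.5% and 29.3%, against 19.0% in the main fit.

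With a replicate block 23 members rose and 4 fell in RNA, 37 rose and 2 fell in ribosome-bound RNA, and 22 rose and 2 fell in efficiency. Over all genes 27.4%, 29.2% and 22.2% rose with the block, and 26.7%, 26.0% and 18.2% fell. The block ended the calls of IFT122 in RNA (adjusted p = 0.0547) and of CEP41 and CEP55 in ribosome-bound RNA (adjusted p = 0.0595 and 0.0610). Libraries of the same number shared only the number: their deviations correlated at 0.109, 0.0936 and 0.267 in RNA and at -0.181, -0.258 and -0.00858 in ribosome-bound RNA, and not every library correlated best with its own number. CEP126 was tested only without the filter on low counts, where it rose in ribosome-bound RNA by 3.25 (adjusted p = 0.00504). A trend on protein length could not be fitted, since lengths of proteins were not used here, and was not run. Ribosome-bound depth limits what can be said of genes under about 1.24 CPM.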
